A study of Mus musculus with 8 samples.

Results

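The genes described here are the potassium channels of mouse medium spiny neurons that are not opened by a classical voltage sensor alone: the inward rectifiers (Kcnj genes), the two-pore channels (Kcnk genes) and the calcium- or sodium-activated channels (Kcnn, Kcnma, Kcnmb and Kcnt genes). They were taken by gene name from the array, which carried 54 probes for 40 such genes. A gene counted as measured where 4 or more of the 8 arrays had one of its probes called well above background by the scanner software. By that rule 28 of the 40 genes were measured: 10 of 15 inward rectifiers, 11 of 14 two-pore channels and 7 of 11 calcium- or sodium-activated channels. These 28 are among the 26919 genes and transcripts tested in all.

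Medium spiny neurons, which make up most of the striatum and send its inhibitory output, were sorted from male mice at 4 weeks of age, and their RNA was measured on Agilent arrays with a single dye. R6/2;Scn4b-Venus mice, on 4 arrays, carry exon 1 of the human HTT gene with a long CAG repeat, driven by the human HTT promoter and so active in many cell types, as a fragment model of Huntington's disease. WT;Scn4b-Venus mice, on another 4 arrays, lack that transgene. Both genotypes carry the Venus reporter of the sodium channel subunit gene Scn4b, by which the cells were sorted, so neurons without the reporter were not sampled. The labels do not say whether an array holds 1 animal or several, so p-values measure the spread between these arrays.

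Inward rectifiers pass potassium more easily into the cell than out of it. In medium spiny neurons the Kir2 type holds the membrane near the potassium equilibrium potential between bursts of input, and the Kir3 type opens when G protein beta-gamma subunits are released by inhibitory receptors. Two-pore channels carry a background leak that depends on acid, lipids, stretch and transmitters. BK and SK channels open with calcium and shape the spike and the pause that follows it, and Slack channels open with sodium.

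None of the 28 measured channel genes differed between R6/2 and WT neurons past an adjusted p of 0.05 in limma, and the smallest adjusted p was 0.658, for Kcnj3. Over all genes tested 0.00371% passed. At an unadjusted p under 0.05 there were 2 of the 28, 1 higher in R6/2 (Kcnj3, where 3.7% of all genes were higher) and 1 lower (Kcnk2, where 3.45% were lower). Those 2 make up 7.14% of the measured channel genes, against 7.14% of all genes tested, so their number does not stand out from the background. The R6/2 and WT arrays overlapped for all 28 genes by the probe used, whereas they did not overlap for 4.73% of all genes. A log2 difference of at least 0.5 in either direction was found for 9 of the 28 genes (32.1%), against 23.3% of all genes.

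The probe sequences that matter for reading the differences belong to Kcnj3, Kcnj13 and Kcnn3, where 2 probes of a gene gave unlike values. They are the scanner files' own probe sequences, and the coordinates are on mm9. The first reads the member with the smallest p, the second is the only tested inward rectifier probe whose R6/2 and WT arrays did not overlap, and the third reads a gene whose probes had opposite signs. In the Kcnj13 probe the capitals mark the TAA triplet at its end. The Kcnn3 probe is 60 bases long and is mapped over 1525 bases, so it does not match the genome as 1 unbroken block. The Kcnj4 probe is mapped to chr15:79314133-79314157, a stretch shorter than 60 bases, and the Kcnn4 probe to chr7:25169184-25169782, a longer one. Whether a probe lies in coding sequence or in an untranslated region was not analysed here.
Kcnj3, chr2:55290214-55290273, plus strand: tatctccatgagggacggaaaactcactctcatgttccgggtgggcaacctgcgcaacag
Kcnj13, chr1:89282991-89283050, minus strand: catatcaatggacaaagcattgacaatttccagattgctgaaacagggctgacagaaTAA
Kcnn3, chr3:89465136-89466660, plus strand: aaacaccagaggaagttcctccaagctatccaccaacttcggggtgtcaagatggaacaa

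All levels below are log2 signal relative to the 75th percentile of the same array. A level of 0 is therefore as bright as that percentile, and levels of different probes cannot be set against each other. Differences are R6/2 minus WT on the same log2 scale. In bulk RNA such as this, fewer cells that express a gene and less of its RNA per cell cannot be told apart.

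Among the Kir2 channels, which carry the resting potassium conductance of these neurons, no gene passed. Kcnj4, which encodes Kir2.3, stood at 3.01, 3.47, 3.55 and 3.28 in R6/2 replicates 1 to 4, against 3.63, 3.50, 3.94 and 3.86 in WT replicates 1 to 4. It was the inward rectifier with the tightest replicates, with an SD of 0.24 in R6/2 and 0.20 in WT, and 3 of the 4 R6/2 arrays lay below every WT array. The difference was -0.40, with a 95% interval of -0.86 to 0.05 (limma adjusted p = 0.729). In this fit it was the 1 inward rectifier with a negative difference, whereas with normexp background correction, and also without WT replicate 1, there were 4.

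Kcnj2, which encodes Kir2.1, stood at -1.83, -1.24, -1.38 and -0.95 in R6/2, against -1.71, -3.72, -1.59 and -1.53 in WT. WT replicate 2 lay far below the other WT arrays, and those 3 were within the range of the R6/2 arrays. The difference of 0.79 had a 95% interval of -0.34 to 1.92 (adjusted p = 0.778), and without WT replicate 2 it was 0.26. That array also had the highest summed level of oligodendrocyte markers, 61.3 times the 75th percentile of its signal against at most 20.7 on the other WT arrays and at most 15.1 on the R6/2 arrays. The part of those cells in the Kcnj2 value was not tested.

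Kcnj12, which encodes Kir2.2, had the smallest difference of the Kir2 genes, with -0.90, -1.97, -1.68 and -0.70 in R6/2 and -1.43, -0.87, -1.43 and -1.62 in WT. Its difference was 0.03, and its 95% interval, -0.72 to 0.77, leaves room for changes of either sign. Kcnj14, which encodes Kir2.4, differed by 0.15 at 1 probe and by 0.55 at a dimmer one 942 bases away, neither of them past the threshold. The dimmer probe was well above background on all 4 R6/2 arrays but on 1 WT array, so its WT level rests mostly on spots near background.

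The Kir3 channels, opened by G protein beta-gamma subunits, included the member with the smallest p. Kcnj3 encodes GIRK1, the subunit that most neuronal Kir3 channels contain. It stood at -0.52, 0.58, 1.07 and -0.12 in R6/2, against 0.11, -1.34, -1.67 and -1.11 in WT. WT replicate 1 reached into the R6/2 range, and the other WT arrays lay below every R6/2 array. The difference was 1.26 ± 0.47 (standard error), a 2.39-fold higher signal, with a 95% interval of 0.19 to 2.32 (limma adjusted p = 0.658, unadjusted 0.0259).

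A second Kcnj3 probe, 157648 bases further along the gene in its direction of transcription, did not show this. It read -5.46, -3.69, -3.01 and -3.46 in R6/2, against -4.97, -1.27, -5.69 and -4.18 in WT, with a difference of 0.12. It was well above background on 3 R6/2 arrays and 2 WT arrays, so it is a dim probe whose spread covers the difference at the first. With the mean of both probes in place of the brighter one, Kcnj3 differed by 0.69. Kcnj3 had no unadjusted p under 0.05 with that mean, the replicate block or the t-test. With 1 array left out, it had one only without R6/2 replicate 1, R6/2 replicate 4 or WT replicate 1. In the authors' deposited table the first probe is 2.39-fold up at an uncorrected p of 0.0545 and a corrected p of 0.838.

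Kcnj9, which encodes GIRK3, stood at 1.41, 2.59, 2.27 and 1.48 in R6/2, against 1.61, 0.97, 2.13 and 2.18 in WT. The groups shared most of their range, and the difference was 0.21 (adjusted p = 0.926). Kcnj5, which encodes GIRK4, had a fitted difference of 1.30 with the widest interval of any member, -0.96 to 3.57. It read -1.11, -4.47, -4.66 and -2.75 in R6/2, against -2.13, -5.02, -5.74 and -5.32 in WT. All 4 R6/2 arrays but only WT replicate 1 were well above background, so the WT level rests mostly on spots near background and the size of the difference is not well defined. It was 0.26 with normexp, 0.59 without R6/2 replicate 1 and 2.11 without WT replicate 1. Kcnj6, which encodes GIRK2 and is printed as 10 spots on each array, was well above background on no array.

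The genes of the proteins that open and close Kir3 channels gave values of either sign. The list of G protein subunits, GABA-B receptor subunits and their RGS and KCTD partners had 18 of 18 genes tested, with 9 negative and 9 positive differences, a median of 0.02 against 0.03 over all genes, and 0 past the threshold. Its smallest p belonged to Gng3, a G protein gamma subunit of neurons, at 0.59 (limma adjusted p = 0.617, unadjusted 0.0164). The R6/2 arrays lay wholly above the WT arrays for Gng3, which is 5.56% of the list against 2.16% of all genes. The G protein alpha subunits Gnai2 and Gnao1 differed by -0.77 and -0.44, and Gng7, the gamma subunit typical of striatal neurons, by -0.38. None of these 3 had an unadjusted p under 0.05.

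The ATP-sensitive channels, which close when the cell is well supplied with energy, pair a Kcnj8 or Kcnj11 pore with a sulfonylurea receptor. Kcnj11, which encodes Kir6.2, differed by 0.14 at the probe used and by 0.34 at its other probe (adjusted p = 0.961 for the gene). Kcnj8 was well above background on no array. The receptors Abcc8 and Abcc9 both had negative differences, -0.48 and -0.61. The Abcc8 arrays did not overlap (limma adjusted p = 0.719, unadjusted 0.0625), a pattern that 2.57% of all genes showed in the lower direction.

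**Figure D1:**
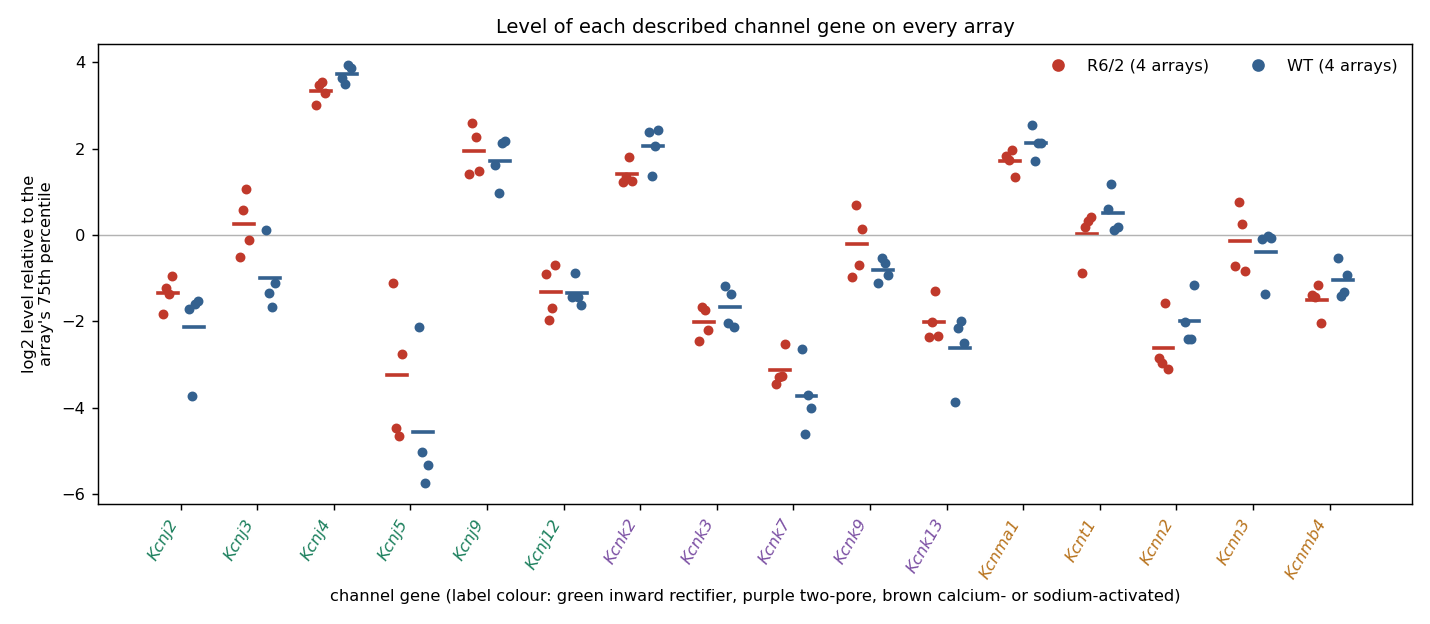
Log2 level relative to the array's 75th percentile for the 16 channel genes described on every array, with R6/2 arrays as red points left of the WT arrays in blue and a bar at each group's mean. The points of the groups overlap for every gene, and levels of different genes are not comparable because each is read by its own probe.

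Kcnj13 and Kcnj15 belong to the inward rectifiers best known from epithelia. Kcnj13, which encodes Kir7.1, had a difference of 0.42 at the brighter probe (limma adjusted p = 0.913). At its other probe, whose sequence is printed above, it read -1.30, -0.80, -1.36 and -0.76 in R6/2, against -1.81, -2.87, -2.06 and -2.09 in WT, with every R6/2 array above every WT array. That probe differed by 1.15 (limma adjusted p = 0.552 over all probes tested, unadjusted 0.00324), where 2.16% of all genes had R6/2 arrays wholly above the WT arrays. In the authors' deposited table the same probe is 2.22-fold up at an uncorrected p of 0.00608 and a corrected p of 0.751.

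The 2 Kcnj13 probes start only 132 bases apart, yet the brighter one read 0.86 in WT replicate 1 and between -2.10 and -1.27 in the other WT arrays. It differed by 1.03 without WT replicate 1 and by 0.04 without WT replicate 2. Kcnj15 differed by 0.14, with a 95% interval of -1.03 to 1.31. Kcnj10 and Kcnj16, which together make the potassium channel of astrocytes, were each well above background on 1 R6/2 array and 1 WT array, and Kcnj1, the renal channel, on none.

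As a family, 9 of the 10 measured inward rectifiers had a positive difference and 1 a negative one, with a median of 0.18, while 46% of all genes had a negative difference. The split depended on the scaling and on single arrays. It was 6 positive to 4 negative with normexp and without WT replicate 1, and 7 to 3 with quantile normalization, without R6/2 replicate 1 and without WT replicate 2. With probes above background on every array, which leaves out Kcnj5, Kcnj14 and Kcnj15, it was 6 to 1. These genes share the same 8 arrays and are not independent of each other, so the split carries no p-value.

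All inward rectifiers need the membrane lipid PIP2 to open, and the Kir2 channels bind postsynaptic scaffold proteins. Of 10 genes that make or break down PIP2, 9 were tested, with 6 negative and 3 positive differences and a median of -0.24. Pi4ka, the lipid kinase at the start of PIP2 synthesis, differed by -0.58, with no overlap between groups (limma adjusted p = 0.616, unadjusted 0.0143). Genes with R6/2 arrays wholly below the WT arrays made up 11.1% of those tested in this list, against 2.57% of all genes. The phospholipases C Plcb1 and Plcb3 differed by -0.54 and -0.69, and Plcb4 by 1.34 with a 95% interval of -0.84 to 3.53. Of the 9 scaffold genes, 4 had negative and 5 positive differences, with a median of 0.06. The anchoring protein gene Akap5 was the one among them whose groups did not overlap, lower in R6/2 by a difference of -0.37 (limma adjusted p = 0.719), which is 11.1% of the list against 2.57% of all genes. The genes Lin7b and Lin7a, whose proteins bind MAGUK scaffolds, differed by -0.46 and 0.40, and the MAGUK gene Dlg3 by -0.26. In neither list did a gene pass, and both lists were chosen with earlier results of these data known.

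Kcnk2 was the two-pore gene with the smallest p. It encodes TREK-1, a leak channel opened by stretch, arachidonic acid and warmth and closed by Gq- and Gs-coupled receptors. Its probe lies at chr1:191032758-191032817 on the minus strand of mm9 and stood at 1.22, 1.34, 1.80 and 1.26 in R6/2, against 2.39, 1.35, 2.06 and 2.42 in WT. WT replicate 2 fell among the R6/2 arrays, and the other 3 WT arrays lay above all of them. The difference was -0.65 ± 0.28 (standard error), or 0.638 times the WT signal, with a 95% interval of -1.29 to -0.01 (limma adjusted p = 0.689, unadjusted 0.0472). Without WT replicate 2 it was -0.88, at a limma adjusted p of 0.561, and without WT replicate 4 it was -0.53. Kcnk2 had no unadjusted p under 0.05 with quantile normalization, no filter on dim probes, the t-test, the replicate block or the slide block. With 1 array left out, it had one only without R6/2 replicate 3 or WT replicate 2.

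Its closest relatives gave smaller values. Kcnk4, which encodes TRAAK, read between 1.68 and 1.84 in R6/2 and between 1.54 and 2.01 in WT, and its difference of -0.01 had the narrowest interval of all members, -0.41 to 0.38. An interval of that width leaves room for a change of up to 1.31-fold either way. The other Kcnk4 probe, dimmer and 6914 bases away, differed by 0.20. Kcnk10, which encodes TREK-2, differed by -0.40 with a 95% interval of -1.48 to 0.68, and R6/2 replicate 4, at -3.63, was its lowest array.

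The TASK channels, leak channels closed by acid and by muscarinic and other Gq-coupled receptors, differed in sign. Kcnk3, which encodes TASK-1, stood at -2.46, -1.67, -1.73 and -2.19 in R6/2, against -1.18, -2.03, -1.38 and -2.12 in WT. The groups shared much of their range, and the difference was -0.34 (limma adjusted p = 0.842), -0.17 without WT replicate 1 and -0.19 without R6/2 replicate 1. Kcnk9, which encodes TASK-3, stood at -0.97, 0.69, -0.70 and 0.15 in R6/2, against -1.10, -0.54, -0.65 and -0.93 in WT. R6/2 replicates 2 and 4 lay above every WT array and the other R6/2 arrays did not, with a difference of 0.60 (adjusted p = 0.777) that was 0.30 without R6/2 replicate 2.

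A probe listed under the clone name A930009L07Rik, whose accession now belongs to Kcnk9, falls outside the naming rule. It differed by 1.68, with a limma adjusted p = 0.699 (unadjusted 0.0514), and ran from -4.40 to -1.33 over the R6/2 arrays and from -4.67 to -2.60 over the WT arrays. Kcnk15, the TASK relative without a known current of its own, differed by -0.05 at its brighter probe and by 0.37 at its dimmer one.

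The THIK channels are found in neurons and in microglia. Kcnk13, which encodes THIK-1, stood at -2.37, -2.01, -1.30 and -2.34 in R6/2, against -3.86, -2.15, -1.99 and -2.51 in WT. Only WT replicate 1 lay well below the rest, and it was not well above background there. The difference was 0.62 (adjusted p = 0.801), 0.21 without that array, 0.39 without R6/2 replicate 3 and 0.25 with normexp. The 8 microglial markers, 7 of them measured with 3 negative and 4 positive differences, summed to between 148 and 173 times the 75th percentile in R6/2 and 179 to 199 times in WT, almost all of it from Itgam and Csf1r, while P2ry12 was well above background on 0 R6/2 arrays and 1 WT array. Their part in the Kcnk13 value was not tested. Kcnk12, which encodes THIK-2, differed by -0.39 with a 95% interval of -1.0 to 0.23.

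Of the TWIK channels, Kcnk1, which encodes TWIK-1, differed by -0.12 and read between 2.22 and 2.93 over all 8 arrays. Kcnk7, a TWIK relative with no known current, stood at -3.46, -3.30, -3.26 and -2.52 in R6/2, against -2.63, -4.61, -3.70 and -4.0 in WT. R6/2 replicate 4 and WT replicate 1 were each the highest of its group, and the other WT arrays lay below all R6/2 arrays. The difference was 0.60 (adjusted p = 0.799), 0.97 without WT replicate 1, 0.31 without WT replicate 2 and 0.07 with normexp. Kcnk16, which encodes TALK-1, had a difference that rounds to zero, -0.0043, with a 95% interval of -0.50 to 0.49.

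Over the 11 two-pore genes, 8 differences were negative and 3 positive, from -0.65 to 0.62, with a median of -0.05. Without R6/2 replicate 4 there were 5 negative and 6 positive. Kcnk6 was well above background on 1 WT array and no R6/2 array, and Kcnk5 and Kcnk18 on none.

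**Figure D2:**
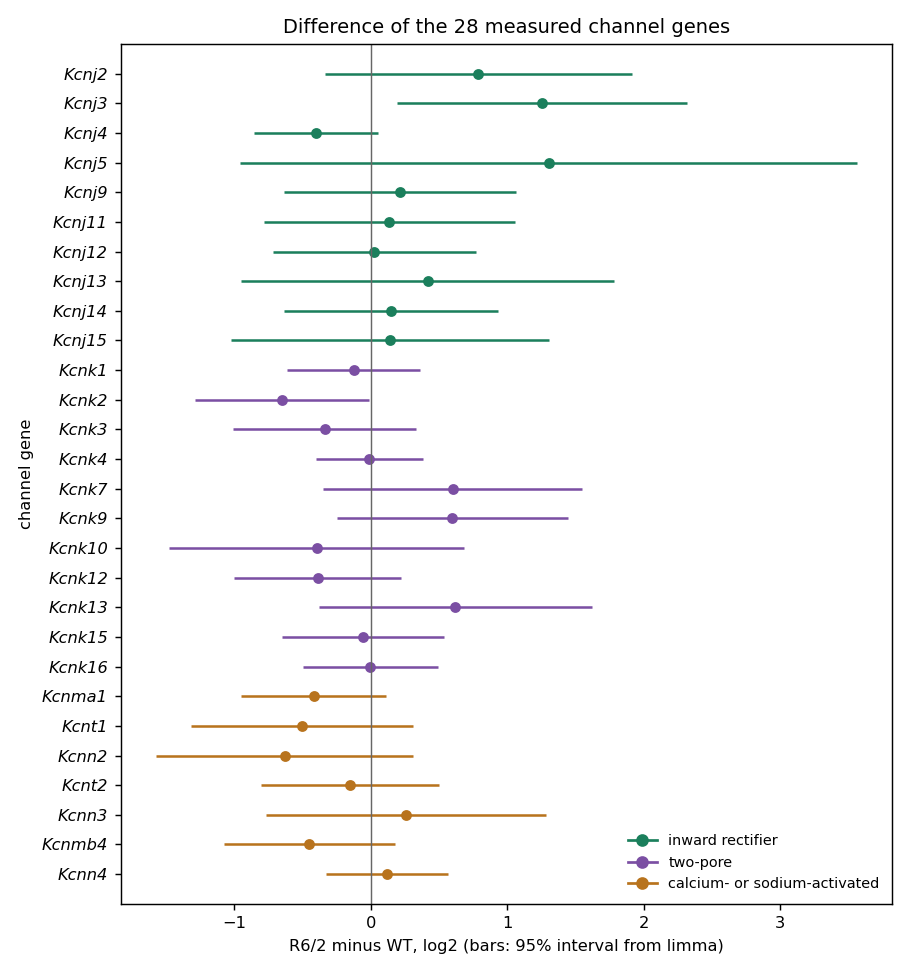
Difference R6/2 minus WT on the log2 scale for the 28 measured channel genes, with the 95% interval of limma as a bar, coloured by family. The interval holds 0 for 26 genes, and lies to the right of 0 for Kcnj3 and to the left of it for Kcnk2.

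Kcnma1, the pore of the BK channel, was the calcium-activated gene with the smallest p, and its 3 probes had the same sign. The brightest stood at 1.82, 1.74, 1.97 and 1.33 in R6/2, against 2.54, 1.72, 2.12 and 2.14 in WT. WT replicate 2 lay within the R6/2 range and the other WT arrays above it, with a difference of -0.42 and a 95% interval of -0.95 to 0.11 (limma adjusted p = 0.762). A second probe differed by -0.28.

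The third Kcnma1 probe, designed on a cDNA clone and placed between the other two, read -1.29, -1.23, -1.07 and -1.02 in R6/2, against -0.75, -0.51, -0.50 and -0.83 in WT. All 4 R6/2 arrays lay below all 4 WT arrays there, a pattern that 2.57% of all genes showed in the lower direction. At the other Kcnma1 probes the groups overlapped. The third probe differed by -0.51 (limma adjusted p = 0.670 over all probes tested, unadjusted 0.0243) and was described after its values were seen. In the authors' deposited table this probe is 1.42-fold down at an uncorrected p of 0.0031 and a corrected p of 0.706. The 3 probes lie within 12215 bases of each other on the minus strand of chromosome 14.

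The BK beta subunits set the channel's calcium sensitivity and speed, and Kcnmb4 is the one typical of neurons. It stood at -1.38, -1.44, -1.15 and -2.03 in R6/2, against -0.53, -1.42, -1.32 and -0.93 in WT. The lowest array was R6/2 replicate 4 and the highest WT replicate 1, and 2 WT arrays lay within the R6/2 range. The difference was -0.45 with a 95% interval of -1.08 to 0.18 (limma adjusted p = 0.776), -0.27 without R6/2 replicate 4, -0.28 without WT replicate 1, and -0.07 at the other, dimmer probe 55521 bases away. Kcnmb2 was well above background on 1 R6/2 array and no WT array, and Kcnmb1 and Kcnmb3 on none.

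SK channels, opened by calcium through bound calmodulin, give the slow pause after spikes. Kcnn2, which encodes SK2, stood at -2.85, -2.95, -1.58 and -3.11 in R6/2, against -2.0, -2.40, -2.42 and -1.15 in WT. R6/2 replicate 3 was the highest R6/2 array and lay inside the WT range, and the other R6/2 arrays lay below every WT array. The difference was -0.63 with a 95% interval of -1.58 to 0.31 (adjusted p = 0.788), -0.98 without R6/2 replicate 3 and -0.35 without WT replicate 4. This gene is printed as 10 spots on each array, whose SD was 0.05 to 0.20, below the SD between arrays of 0.70 in R6/2 and 0.60 in WT.

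Kcnn3, which encodes SK3, gave opposite signs at its 2 probes. The probe printed above stood at -0.71, 0.76, 0.25 and -0.83 in R6/2, against -0.09, -1.37, -0.02 and -0.08 in WT, with a difference of 0.26 (adjusted p = 0.925). WT replicate 2 was its lowest array by a wide margin, and without that array the difference was -0.07. The other probe, 11167 bases further along, stood at -0.15, -0.57, -0.95 and -0.41 in R6/2, against 0.35, 0.01, -0.22 and -0.19 in WT. There only R6/2 replicate 1 reached into the WT range, and the difference was -0.51 (limma adjusted p = 0.733 over all probes tested, unadjusted 0.0662). Kcnn1 was well above background on 2 R6/2 arrays and 1 WT array, and Kcnn4, the intermediate-conductance channel known from blood cells and microglia, differed by 0.12 with a 95% interval of -0.33 to 0.56.

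Kcnt1 encodes Slack, a potassium channel opened by sodium. It stood at -0.87, 0.19, 0.33 and 0.42 in R6/2, against 0.60, 1.18, 0.11 and 0.19 in WT. R6/2 replicate 1 was low and WT replicate 2 high, and the remaining arrays lay between 0.11 and 0.60. The difference was -0.50 (limma adjusted p = 0.801), -0.21 without R6/2 replicate 1 and -0.28 without WT replicate 2, and -0.07 at the other probe. Its relative Kcnt2, which encodes Slick, differed by -0.15 and -0.13 at its 2 probes.

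Of the 7 calcium- or sodium-activated genes, 5 had a negative difference and 2 a positive one, with a median of -0.42, and none passed. With normexp and with quantile normalization all 7 were negative, and without R6/2 replicate 1 or WT replicate 4 there were 4 negative and 3 positive. The genes known to feed or regulate these channels included calcium channels, junctophilins, calmodulins, casein kinase subunits and BK gamma subunits, and all 17 of that list were tested. There 12 differences were negative and 5 positive, with a median of -0.15, 0 past the threshold and 3 lower at an unadjusted p under 0.05 (17.6%, against 3.45% of all genes). Those 3 were Cacna1c, the L-type calcium channel pore, at -0.72, Jph4, a junctophilin that ties the endoplasmic reticulum to the cell surface, at -0.60, and Ano3, a membrane protein reported to act with Slack in rat sensory neurons, at -0.55. Their limma adjusted p-values ran from 0.620 to 0.670. The R6/2 arrays lay wholly below the WT arrays for 4 of the 17 genes (23.5%, against 2.57% of all genes), namely these 3 and Lrrc38. The list was chosen with earlier results of these data known, so its shares are a description and not a test. Of the BK gamma subunit genes, Lrrc55 differed by 0.56, Lrrc38 by -0.34, Lrrc26 by -0.64 and Lrrc52 by -0.01, with limma adjusted p-values of 0.719 and above.

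**Figure D3:**
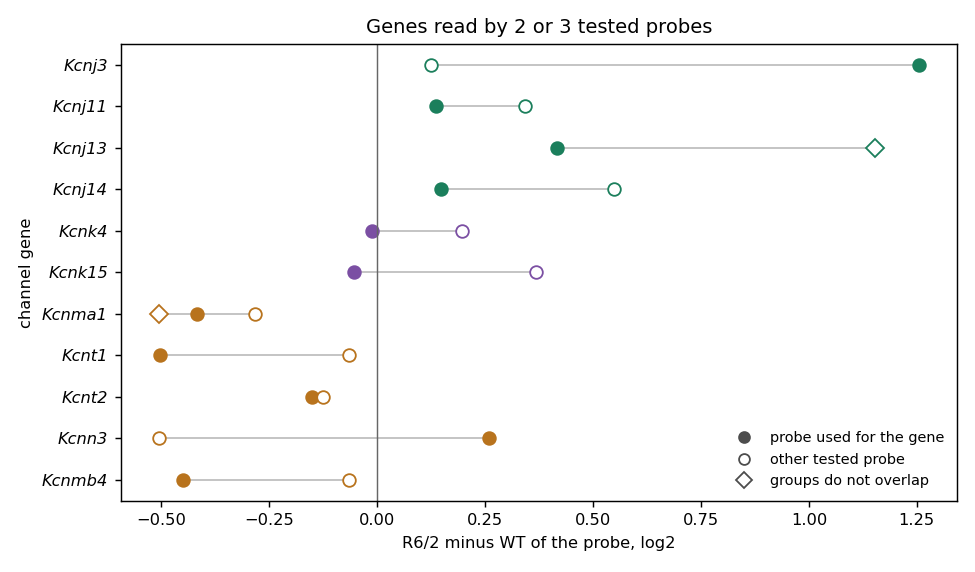
Difference R6/2 minus WT on the log2 scale at each tested probe of the 11 genes read by 2 or 3 probes. Filled points are the probe used for the gene, open circles its other probes and diamonds probes whose R6/2 and WT arrays did not overlap. The probes lie on opposite sides of 0 for Kcnk4, Kcnk15 and Kcnn3, and the gap between probes is widest for Kcnj3, at 1.13.

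For 8 of the 11 genes read by several probes the probes had the same sign, and for 3 they did not. The gap between the probes of a gene ran from 0.02 for Kcnt2 to 1.13 for Kcnj3, and it exceeded the difference at the probe used for Kcnn3 and Kcnj13, among others. The remaining 17 genes rested on a single tested probe. No channel probe shared a run of 20 bases with a probe of another gene, and none was saturated.

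The precision of these comparisons is set by 4 arrays a group. The 95% interval reached from the difference by a log2 distance of 0.39 in the tightest member (Kcnk4), 0.80 in the median one and 2.26 in the widest (Kcnj5), so for the median member a change smaller than 1.74-fold lies within the error. The SD was larger in R6/2 for 12 genes and larger in WT for 16.

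The sorted cells carried the markers of medium spiny neurons on all arrays, at a lower summed level in R6/2. The 15 marker genes summed to 640 to 763 times the 75th percentile in R6/2 and 917 to 1157 times in WT. Of their differences 15 of 15 were negative, with a median of -0.53, and 0 passed the threshold. At an unadjusted limma p under 0.05 there were 8 (53.3%, against 7.14% of all genes). The list was chosen with earlier results of these data known, so this share is a description and not a test. Oligodendrocyte markers summed to 6.46 to 15.1 in R6/2 and 7.42 to 61.3 in WT, with 8 of 8 differences negative and a median of -0.90. Astrocyte markers summed to 3.06 to 6.56 in R6/2 and 3.14 to 7.22 in WT, and those of oligodendrocyte precursors to 0.87 to 1.34 in R6/2 and 1.28 to 1.77 in WT. Endothelial markers summed to 2.98 to 3.98 in R6/2 and 3.46 to 5.0 in WT, and those of pericytes and smooth muscle to 0.26 to 0.37 in R6/2 and 0.28 to 1.17 in WT. Interneuron markers summed to 149 to 173 in R6/2 and 168 to 189 in WT, almost all of it from Lhx6. Of the marker lists given here, only the sums of medium spiny neuron and microglial markers did not overlap between genotypes. Among 9 interneuron markers 7 were measured, with Lhx6, Pvalb, Th and Slc18a3 well above background on all 8 arrays and Calb2 on none. Among 6 pericyte and smooth muscle markers 2 were measured, Acta2 and Des, each on 4 R6/2 arrays and 3 WT arrays, while Anpep was above background on none. The part of the cell makeup in the channel values was not tested.

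The share of probes well above background was 74.0% to 78.8% on the R6/2 arrays and 50.1% to 76.2% on the WT arrays, lowest in WT replicate 1. Of the 54 channel probes, 39 to 42 were above background on the R6/2 arrays and 28 to 43 on the WT arrays, again fewest in WT replicate 1. In R6/2 all 28 measured genes were above background on all 4 arrays by the probe used, and in WT 22 of them were. A gene that passed the filter on its R6/2 arrays alone is a dim one in WT, as Kcnj5 was. A slide of its own held R6/2 replicate 4, and leaving that array out gives the values within the shared slide.

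**Figure D4:**
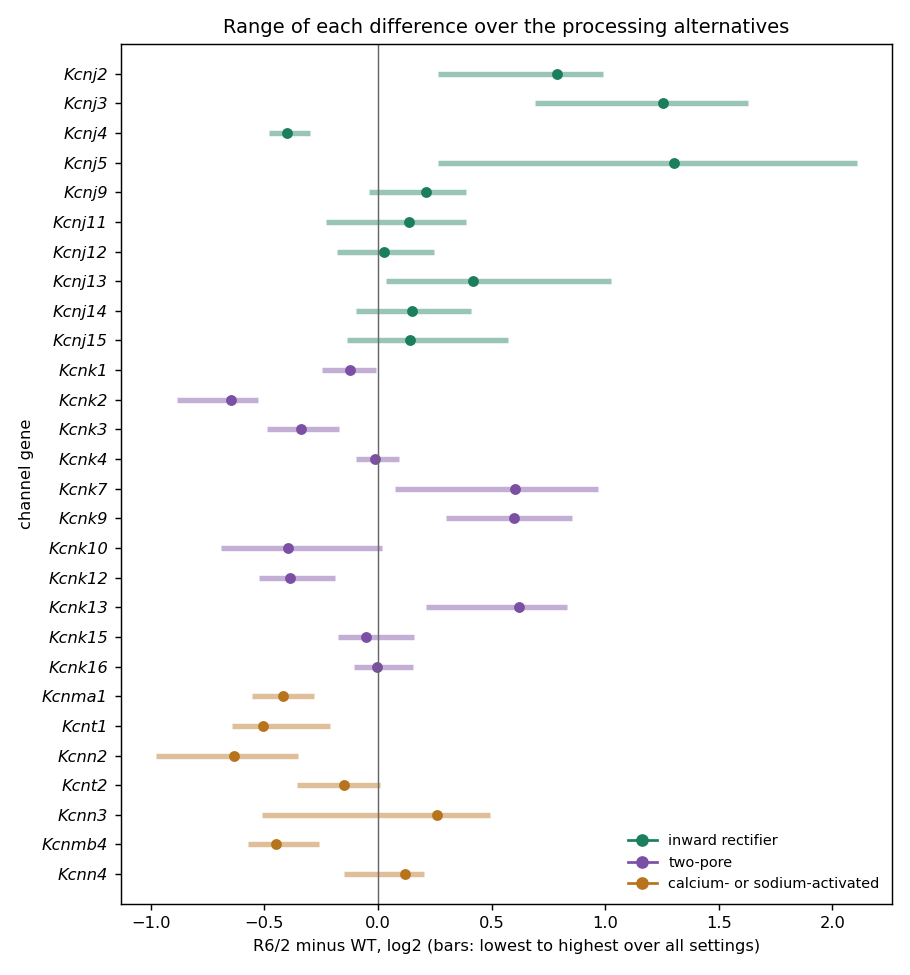
Difference R6/2 minus WT on the log2 scale for the 28 measured channel genes as fitted (points), with bars from the lowest to the highest value over the processing alternatives, coloured by family. The bars of 12 genes cross 0. Those of Kcnj2, Kcnj3, Kcnj5, Kcnj13, Kcnk7, Kcnk9 and Kcnk13 stay above 0. Those of Kcnj4, Kcnk1, Kcnk2, Kcnk3, Kcnk12, Kcnma1, Kcnmb4, Kcnn2 and Kcnt1 stay below it.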

How the data were processed

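The authors' deposited scanner files hold processed intensity values, made with Agilent Feature Extraction 10.7.3.1 per the file headers, after background subtraction and detrending within each array. Processed intensity was taken to log2, outlier spots were dropped, repeated spots averaged, and the array's 75th percentile over non-control probes was subtracted. The authors' deposited table holds log2 values relative to the same percentile, the p-value of an unpaired t-test, a Benjamini-Hochberg p-value and a fold change, per the file headers. These were used as an alternative and where named. For R6/2 replicate 3, 1 unreadable line was dropped.

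A probe was tested if well above background on 4 of 8 arrays or more, and a gene was read by its tested probe of highest mean level. Differences were fitted with limma 3.58.1 in R 4.3.3 over all 26919 genes, two-sided, with Benjamini-Hochberg adjustment and a threshold of 0.05, and the fit was tested on simulated data. Genes were described on every array if their unadjusted p was under 0.05, their groups did not overlap, their log2 difference was at least 0.5, or they are known from medium spiny neurons. Of each partner list, up to 4 genes with the smallest p were named, and the other BK gamma subunit genes were added whatever their p. The members and lists were chosen with earlier results of these data known. Extra probes of a gene, the clone probe and Kcnj13 were described after their values were seen. Current symbols came from accessions in a RefSeq table of GRCm38.p6, whose coordinates were not used, and probe positions are on mm9 per the file headers. Same-numbered arrays of the genotypes did not deviate together, so the numbers were not taken as pairs.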

Additional observations from a re-analysis of the deposited data

Results flagged for a closer look

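In each genotype, the array at either end of a gene's range was compared with its nearest neighbour, and the gap was set against the whole range of the 4 arrays. Of 56 such groups, 4 had an array that stood apart, and chance alone gives about 1 in 20. Kcnj2 in WT replicate 2 stood at -3.72, with the nearest WT array at -1.71. Kcnn3 in the same array stood at -1.37, with the nearest WT array at -0.09. Kcnn2 in R6/2 replicate 3 stood at -1.58, with the nearest R6/2 array at -2.85. Kcnn4 in R6/2 replicate 4 stood at -3.49, with the nearest R6/2 array at -3.94. WT replicate 2 was also the array with the highest oligodendrocyte marker sum, and R6/2 replicate 4 the one on its own slide. Their part in these values was not tested.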

How the results depend on the processing

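No channel gene passed the threshold under any of the 17 alternatives, whose smallest adjusted p for a channel gene was 0.518. The 1 gene past it in all became 8 under quantile normalization, 8 under normexp, 6 when probes had to be above background on every array and 5 with the mean of a gene's probes. It became 0 with the replicate block, with the methods' t-test and with the slide as a block, and 0 to 3 with 1 array left out (3 without WT replicate 1). The 2 channel genes at an unadjusted p under 0.05 became 4 with normexp, and 1 each with quantile normalization, no filter, the mean of probes, the replicate block (Kcnj5), the t-test (Kcnj4) and the slide block, and 0 to 4 with 1 array left out. There were 4 without WT replicate 1 and 0 without R6/2 replicate 2, WT replicate 3 or WT replicate 4. The replicate block changed no call of a channel gene, and same-numbered arrays had correlated deviations of -0.05 to 0.03, with 1 of 4 numbers its own best match. The median over the channel genes ran from -0.10 to 0.06.

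Of the 28 genes, 16 kept their sign throughout and 12 did not, all of them within 0.40 of 0. With normexp, Kcnj12, Kcnj14, Kcnj15, Kcnk4, Kcnn3 and Kcnn4 turned to -0.0078, -0.026, -0.057, 0.0056, -0.43 and -0.083. With quantile normalization Kcnj12, Kcnj15, Kcnk4, Kcnn3 and Kcnn4 turned to -0.0077, -0.12, 0.037, -0.51 and -0.15. Kcnn3 turned in both because its other probe became the brighter one. With the mean of probes Kcnk15, Kcnk4 and Kcnn3 turned to 0.16, 0.092 and -0.12. With the slide block, which leaves out R6/2 replicate 4, Kcnj12, Kcnk10, Kcnk15, Kcnk16 and Kcnn4 turned to -0.18, 0.018, 0.16, 0.15 and -0.0055. With 1 array left out the ranges that crossed 0 were -0.23 to 0.39 for Kcnj11, -0.18 to 0.25 for Kcnj12, -0.10 to 0.41 for Kcnj14, -0.13 to 0.57 for Kcnj15, -0.038 to 0.39 for Kcnj9, -0.69 to 0.018 for Kcnk10, -0.18 to 0.16 for Kcnk15, -0.11 to 0.15 for Kcnk16, -0.096 to 0.060 for Kcnk4, -0.067 to 0.49 for Kcnn3, -0.0055 to 0.20 for Kcnn4 and -0.36 to 0.0079 for Kcnt2. The number of arrays limits precision, and dim probes such as that of Kcnj5 limit it further.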
